A study of Mus musculus with 4 samples.

Results

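Transcripts of 10 subunits of voltage-gated calcium channels were followed in sorted mouse islet cells that carry either wild-type or mutant Robo1 and Robo2. These 2 genes encode axon guidance receptors of the Roundabout family. The 10 genes were taken by symbol from a table of 51912 genes. They encode 5 pore-forming α1 subunits (Cacna1a, Cacna1c, Cacna1d, Cacna1e and Cacna1h), 3 cytoplasmic β subunits (Cacnb1, Cacnb2 and Cacnb3) and 2 α2δ subunits (Cacna2d1 and Cacna2d2). All 10 were in the table, and 9 of them passed the filter on low counts, under which 16517 genes were tested. Cacna1e did not pass.

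The study has 4 RNA sequencing libraries of neonates at day 13, made with a full-length cDNA kit for low input from islet cells sorted for mCherry. All 4 carry 1 copy each of Rosa26-lsl-H2B-mCherry, a nuclear reporter that Cre switches on, and of Ucn3-Cre, whose Cre is driven from the urocortin 3 gene that maturing β cells express. The 2 controls have the genotype Robo1+/+ and Robo2+/+. In the 2 mutants Robo1 is homozygous for a deletion allele (Robo1delta/delta), which does not depend on Cre, and Robo2 is homozygous for a conditional allele (Robo2flx/flx), which does. The labels do not say whether a library is 1 animal or a pool, so the spread behind each p-value is that between these libraries and may be technical.

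Voltage-gated calcium channels couple electrical activity of the β cell to insulin release. When glucose metabolism closes ATP-sensitive potassium channels, the membrane depolarises, these channels open and the calcium that enters triggers fusion of insulin granules. The α1 subunit forms the pore and sets the channel type (L-type, P/Q-type, R-type or T-type). The β subunit binds the pore subunit inside the cell and the α2δ subunit sits outside, and both affect how many channels reach the membrane and how they gate.

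Where 4 values follow each other, they belong to control 1, control 2, mutant 1 and mutant 2, in that order. The totals ranged from 38886129 to 49593712 counts. Robo1 was at 48.5, 104, 22.3 and 21.0 CPM (TMM-scaled counts relative to the library total) and Robo2 at 75.3, 118, 32.7 and 25.6 CPM, so both were lower in both mutant libraries. Mutant 2 stood apart in its content of other cell types. The summed level of 8 acinar markers was 39013 CPM in it against 432 to 4306 CPM in the other 3 libraries, and that of 6 fibroblast markers was 12.9 CPM against 660 to 2197 CPM. The 10 β-cell markers summed to between 160290 CPM (mutant 2) and 231397 CPM (control 1), and none was at 0 in any library. Transcripts of other islet cells were present in all libraries, with the alpha-cell gene Gcg at 11451 to 23497 CPM. The subunit levels given here are those of the whole sorted sample, not of β cells alone. Changes that rest on mutant 2 are also given without it.

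Cacna1c, which encodes the pore of an L-type channel of β cells, heart and smooth muscle, differed most clearly of the 10. The libraries held 558, 425, 1190 and 998 counts, or 11.7, 10.4, 23.8 and 21.9 CPM. Both mutant libraries lay above both controls, and the libraries of a genotype lay close together, their higher over their lower value being 1.12 in control and 1.08 in mutant cells. The mean level was 11.0 ± 0.869 CPM in control and 22.9 ± 1.31 CPM in mutant cells (SD, n = 2 each), a 2.07-fold higher level in the mutant. The log2 change was 1.05 (SE, the standard error, 0.23), with a 95% interval of 0.44 to 1.66. In edgeR's quasi-likelihood fit it had an unadjusted p of 0.00763 and, after Benjamini-Hochberg adjustment over all tested genes, a p of 0.680, so it did not pass the threshold of 0.05. DESeq2 did not call it either, with an adjusted p of 0.0695. The mutated genes Robo1 and Robo2 did not pass by edgeR either, with unadjusted p of 0.00796 and 0.00244 and an adjusted p of 0.680 each. DESeq2 called both of these mutated genes. An edgeR p as small as that of Cacna1c or smaller was found for 118 of the 16517 genes (0.714%). Leaving out 1 library at a time gave log2 changes from 0.97 to 1.13, with adjusted p from 0.139 to 1.000, and without control 2 the unadjusted edgeR p was 0.0707. The gene lies on chromosome 6, 118587240 to 119196418, minus strand (GRCm38), and no exon of another annotated gene overlaps its exons.

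**Figure D1:**
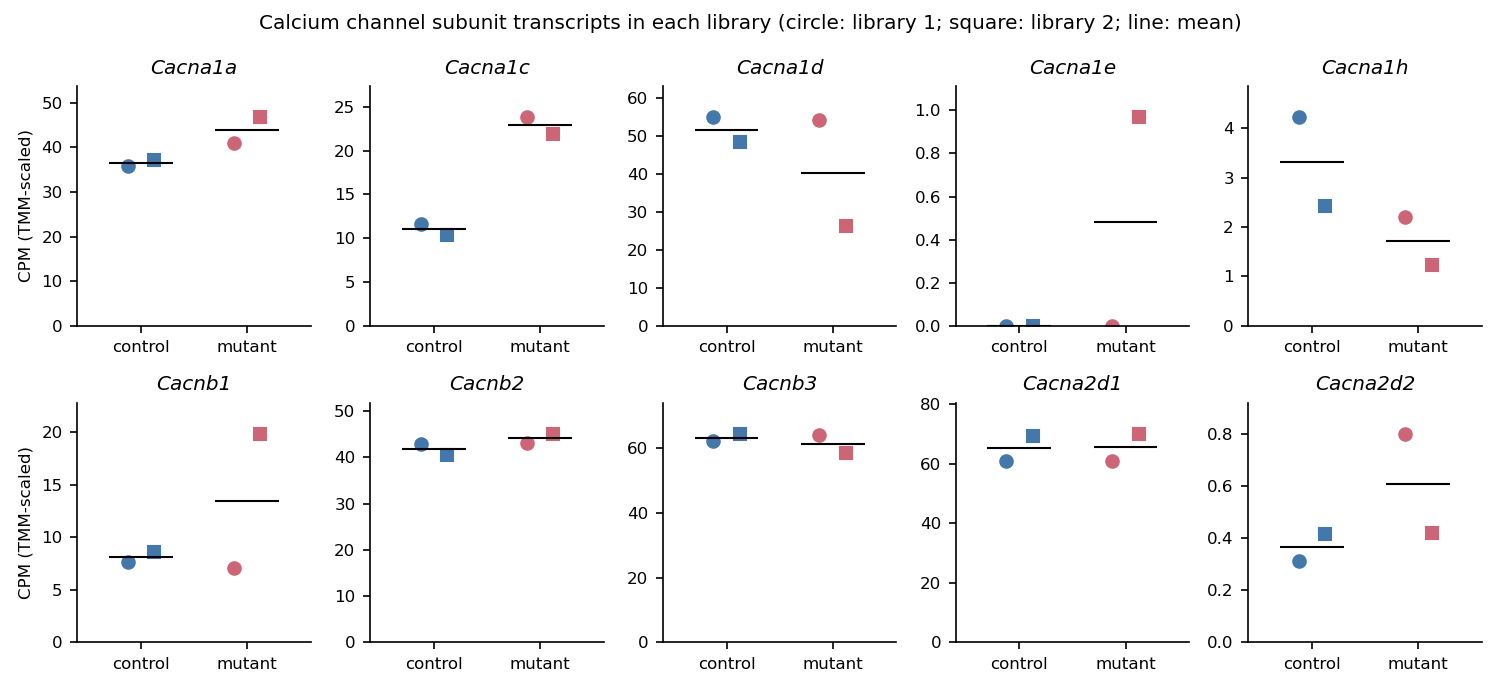
Level of each of the 10 subunit transcripts (vertical axes, CPM scaled by TMM, each from 0) in the 2 control and 2 Robo mutant libraries, with circles for library 1, squares for library 2 and lines for the mean of a genotype. Cacna1c is at 10.4 and 11.7 CPM in control and at 21.9 and 23.8 CPM in mutant libraries, while Cacna1d, Cacna1e and Cacnb1 differ mainly in mutant 2.

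Cacna1d encodes the other L-type pore of the β cell. Its libraries held 2624, 1970, 2704 and 1190 counts, or 54.8, 48.3, 54.1 and 26.2 CPM. Mutant 1 lay between the controls and mutant 2 was the lowest library, so the groups overlapped. The log2 change was -0.36 (SE 0.38, 95% interval -1.36 to 0.64), and by edgeR the unadjusted p was 0.385. Without mutant 2 the log2 change was 0.070, and without mutant 1 it was -0.98. The difference in Cacna1d therefore rested on mutant 2, the library with the most acinar and the least fibroblast transcript, and the part of either in it was not tested. Of the exon bases of Cacna1d (chromosome 14, 30039939 to 30491455, minus strand), 4.67% overlap the opposite-strand gene Chdh, from which reads could not be told apart.

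Because the transcripts differ in length, levels of different genes were compared on the TPM scale, computed here from counts per base of exon. On it Cacna1c stood at 0.127, 0.128, 0.262 and 0.499 of the level of Cacna1d. Cacna1c thus made up 11.2% and 11.4% of the transcripts of this L-type pair in the controls, and 20.8% and 33.3% in the mutants. The controls were almost alike, and both mutants were higher but differed from each other, since Cacna1d was lower in mutant 2. With 2 libraries against 2 no permutation test can give a two-sided p under 0.333, so no test of this share was made.

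Cacna1a encodes the pore of P/Q-type channels. It was at 35.8, 37.1, 41.0 and 46.7 CPM, on 1510 to 2124 counts. Both mutant libraries were above both controls, by less than for Cacna1c. The log2 change was 0.27 (SE 0.16, 95% interval -0.14 to 0.68), and the unadjusted p by edgeR was 0.151. Without mutant 2 the log2 change was 0.17. In mutant 2 Cacna1a had its highest level and Cacna1c was above both controls, while Cacna1d had its lowest level. The cause was not tested.

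Cacna1h, which encodes a T-type pore that opens at low voltage, was a minor transcript. It had 202, 99, 110 and 56 counts, or 4.22, 2.43, 2.2 and 1.23 CPM. Both mutant libraries lay below both controls, but control 2 (exact Poisson 95% interval 1.97 to 2.96 CPM) and mutant 1 (1.81 to 2.65 CPM) differed by less than counting error, which is all that these intervals cover. The log2 change was -0.95 (SE 0.72, 95% interval -2.87 to 0.96), and the unadjusted p by edgeR was 0.249. It was -0.50 without control 1, -0.59 without mutant 2 and -1.43 without mutant 1. The limma settings gave -0.63 and -0.66 on log2(CPM + 1), a scale that understates changes of low genes.

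Cacna1e, the gene of the R-type pore, had 0 counts in control 1, control 2 and mutant 1 and 44 counts in mutant 2. The exact Poisson 95% interval of a count of 0 reaches 0.0771, 0.0905 and 0.0738 CPM in those 3 libraries (0.0627, 0.0736 and 0.0600 CPM by the floor of 3 counts used elsewhere for counts of 0). Mutant 2 stood at 0.968 CPM, with an interval of the same kind of 0.70 to 1.3. Cacna1e was thus detected in 1 library only, and no change was computed for it.

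**Figure D2:**
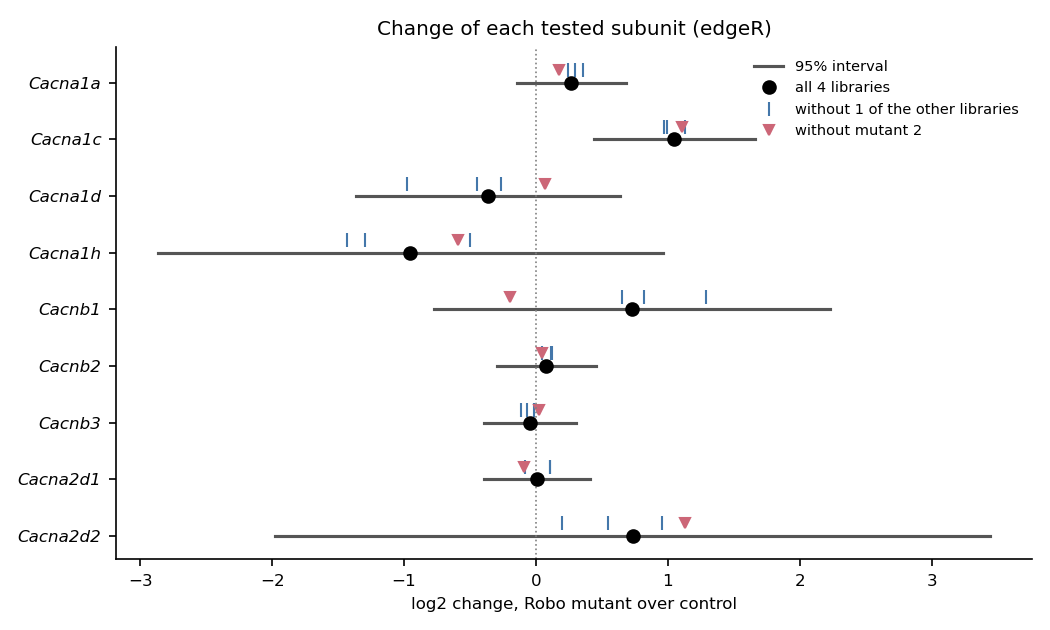
Log2 change of the 9 tested subunits (horizontal axis, Robo mutant over control) from edgeR, with dots for all 4 libraries, lines for the 95% interval, bars for fits without 1 of 3 other libraries and triangles for the fit without mutant 2. The interval of Cacna1c runs from 0.44 to 1.66, and those of the other 8 include 0. The triangles of Cacna1d (0.070), Cacnb1 (-0.20), Cacnb3 (0.021) and Cacna2d1 (-0.094) are on the other side of 0 from their dots.

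Within the pore class the summed TPM of all 10 α1 genes was 19.9, 20.9, 21.7 and 17.1, so the total overlapped between genotypes. Cacna1d and Cacna1a made up most of it in every library. The share of Cacna1d was 49.5% and 47.0% in the controls and 45.1% and 27.0% in the mutants, and that of Cacna1a was 35.7% and 39.8% in the controls and 37.8% and 53.3% in the mutants. Cacna1c took 6.27% and 6.04% of pore transcripts in the controls and 11.8% and 13.5% in the mutants. The shares of Cacna1c and of Cacna1d did not overlap between genotypes, with Cacna1c higher and Cacna1d lower in both mutants, while that of Cacna1a overlapped. The share of Cacna1c was close in both mutants, and that of Cacna1d was not. Measured with the longest coding transcript in place of the union of exons, the mean share of Cacna1c was 6.91% in control and 14.0% in mutant cells.

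Among the β subunits, Cacnb3 and Cacnb2 differed little between genotypes. Cacnb3, whose product is a channel β subunit abundant in islets, was at 62.1, 64.5, 64.2 and 58.6 CPM. Its log2 change was -0.044 with a 95% interval of -0.39 to 0.30. Cacnb2, the gene of a β subunit found also in heart, was at 42.8, 40.6, 43.1 and 45.1 CPM, with a log2 change of 0.080 and an interval of -0.30 to 0.46. These intervals bound the fold difference of Cacnb3 and Cacnb2 more tightly than those of the low-count members, and neither shows that the levels are equal.

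Cacnb1, which encodes the β subunit of skeletal muscle and other tissues, was high in mutant 2 alone. It was at 7.65, 8.56, 7.06 and 19.8 CPM, on 366, 349, 353 and 902 counts. Mutant 1 was below both controls, and the 2 mutant libraries differed 2.81-fold. In 9019 genes with a mean of at least 10 CPM, the median of that ratio was 1.23 and its 90th percentile 1.86. The log2 change of Cacnb1 was 0.73 (SE 0.56, 95% interval -0.77 to 2.23) with an unadjusted p of 0.258 by edgeR. It was -0.20 without mutant 2 and 1.29 without mutant 1. As with Cacna1d, the acinar markers were highest in that same library, and their part was not tested.

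On the TPM scale Cacnb3 was the most abundant of the 10 subunits in both genotypes, at 38.2 ± 4.27 in control and 34.5 ± 2.78 in mutant cells (SD, n = 2 each). It made up 75.4%, 75.8%, 76.5% and 64.8% of β-subunit transcripts. The share of Cacnb2 depended on the length used, with a control mean of 15.1% over the union of exons and 29.2% over the longest coding transcript. Its place in the order of levels is therefore uncertain.

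Of the α2δ subunits, Cacna2d1 was the main one, and its genotypes overlapped. It was at 60.9, 69.3, 60.9 and 70.0 CPM, and each genotype had 1 lower and 1 higher library. Its log2 change was 0.0080 with a 95% interval of -0.39 to 0.41, and the sign differed between settings. Cacna2d2 was near the detection limit, with 15, 17, 40 and 19 counts, and mutant 2 exceeded control 2 by only 0.418 against 0.417 CPM. Its log2 change was 0.73, or 0.20 to 1.13 with 1 library left out, with an interval of -1.98 to 3.45, too wide to separate a large rise from a large fall.

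**Figure D3:**
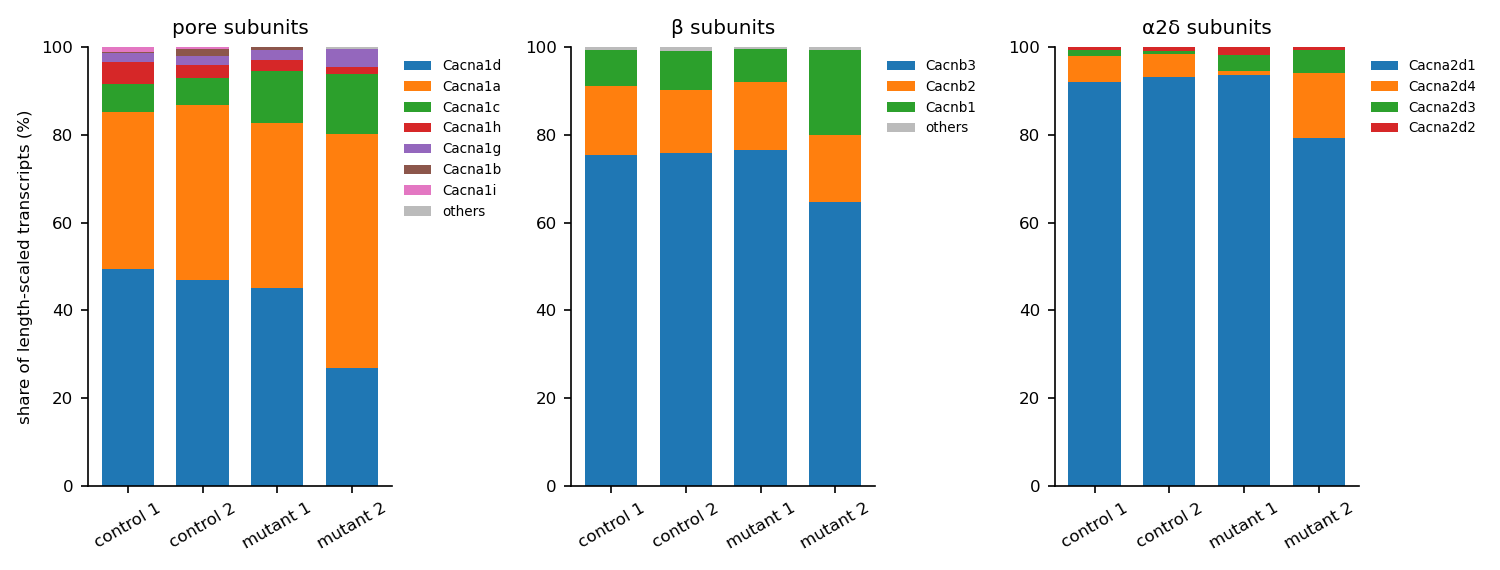
Share of each gene (vertical axis, percent of length-scaled transcripts over the union of exons) within the pore, β and α2δ subunits in each of the 4 libraries, with genes under 1% in every library joined as others. Cacna1c takes 6.27% and 6.04% of pore transcripts in control and 11.8% and 13.5% in mutant libraries, and mutant 2 departs from the other 3 in Cacna1d, Cacnb1 and Cacna2d4.

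The order of the 10 levels in control cells, in TPM, was Cacnb3 (38.2), Cacna2d1 (12.7), Cacna1d (9.86), Cacna1a (7.73), Cacnb2 (7.62), Cacnb1 (4.35), Cacna1c (1.26), Cacna1h (0.811), Cacna2d2 (0.112) and Cacna1e (listed at 0). Of the neighbours in this order only Cacna1a and Cacnb2 overlapped between libraries. In mutant cells Cacnb3 (34.5) and Cacna2d1 (11.9) again led, followed by Cacna1a (8.66), Cacnb2 (7.51), Cacna1d (7.20) and Cacnb1 (6.66). The levels of Cacna1a and of Cacnb2 in the mutant libraries lay inside the ranges of Cacna1d (4.62 to 9.78 TPM) and Cacnb1 (3.56 to 9.76 TPM), so the third to the sixth place have no settled order. Cacna1c, at 2.44 TPM in mutant cells, kept the seventh place in both genotypes. With the longest coding transcript as length Cacnb2 moved to the second place in both genotypes, at 19.2 TPM in control and 19.3 TPM in mutant cells.

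Counted together, 6 of the 9 tested subunits were higher in mutant cells and 3 lower, with a median log2 change of 0.080, against -0.013 over all tested genes. With edgeR 0 of them had an adjusted p under 0.05, as did 0 of all tested genes (0%), and DESeq2 called 0 of them against 0.914% of all. At an unadjusted edgeR p under 0.05 there was 1 higher (Cacna1c; background 1.99%) and 0 lower (background 4.21%). Both mutant libraries lay above both controls in 4 (Cacna1a, Cacna1c, Cacnb2 and Cacna2d2), where 16.1% of all tested genes did so, and below both in 1 (Cacna1h), where 20.4% did. The nearest libraries of the genotypes were almost level for Cacnb2 (43.1 against 42.8 CPM) and Cacna2d2 (0.418 against 0.417 CPM). For Cacna1h they differed by less than counting error.

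Transcripts of other cell types moved between the libraries as well, and Cacna1c is known also from smooth muscle. The 8 smooth muscle and pericyte markers summed to 309, 76.4, 303 and 2.99 CPM. In mutant 2 Myh11, Rgs5, Pdgfrb and Des were at 0 counts, Acta2, the smooth muscle actin gene, at 1 count, Notch3 at 13 and Tagln at 43 counts, while Cacna1c was at 21.9 CPM there. The eighth marker, Cspg4, went the other way, with 0, 63, 0 and 79 counts. Control 1 and mutant 1 were alike in these markers and differed in Cacna1c, at 11.7 and 23.8 CPM. The part of these cells in the level of Cacna1c was not tested.

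Other marker sums were higher in both mutant libraries, as Cacna1c was. The 5 delta-cell markers summed to 1063, 981, 2506 and 1289 CPM, with Lepr at 0 in all libraries and the somatostatin gene Sst at 793, 712, 2145 and 803 CPM. Rbp4 was at 258, 254, 329 and 470 CPM and held most of the excess in mutant 2. Hhex (9.76, 12.9, 30.2 and 8.88 CPM) and Ghsr (2.11, 1.86, 1.92 and 6.88 CPM) overlapped between the genotypes. The 6 immune markers summed to 29.9, 7.78, 34.1 and 32.8 CPM, with the macrophage receptor gene Csf1r at 14.9, 5.42, 15.2 and 9.76 CPM. Control 1 was close to the mutants in this sum. Of the 6, 1 (Ptprc) had both mutant libraries above both controls, where 16.1% of all tested genes did so. The part of delta and immune cells in the difference of Cacna1c was not tested. The 5 alpha-cell markers (23587, 11692, 19108 and 23871 CPM), the 7 duct markers (478, 565, 489 and 523 CPM), the 6 endothelial markers (4.14, 16.7, 3.74 and 5.81 CPM) and the 6 Schwann-cell markers (8.23, 7.41, 3.56 and 13.3 CPM) overlapped between the genotypes, as did Ppy of PP cells (2593, 1394, 2315 and 788 CPM). In bulk samples fewer cells of a type and less RNA per cell cannot be told apart.

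**Figure D4:**
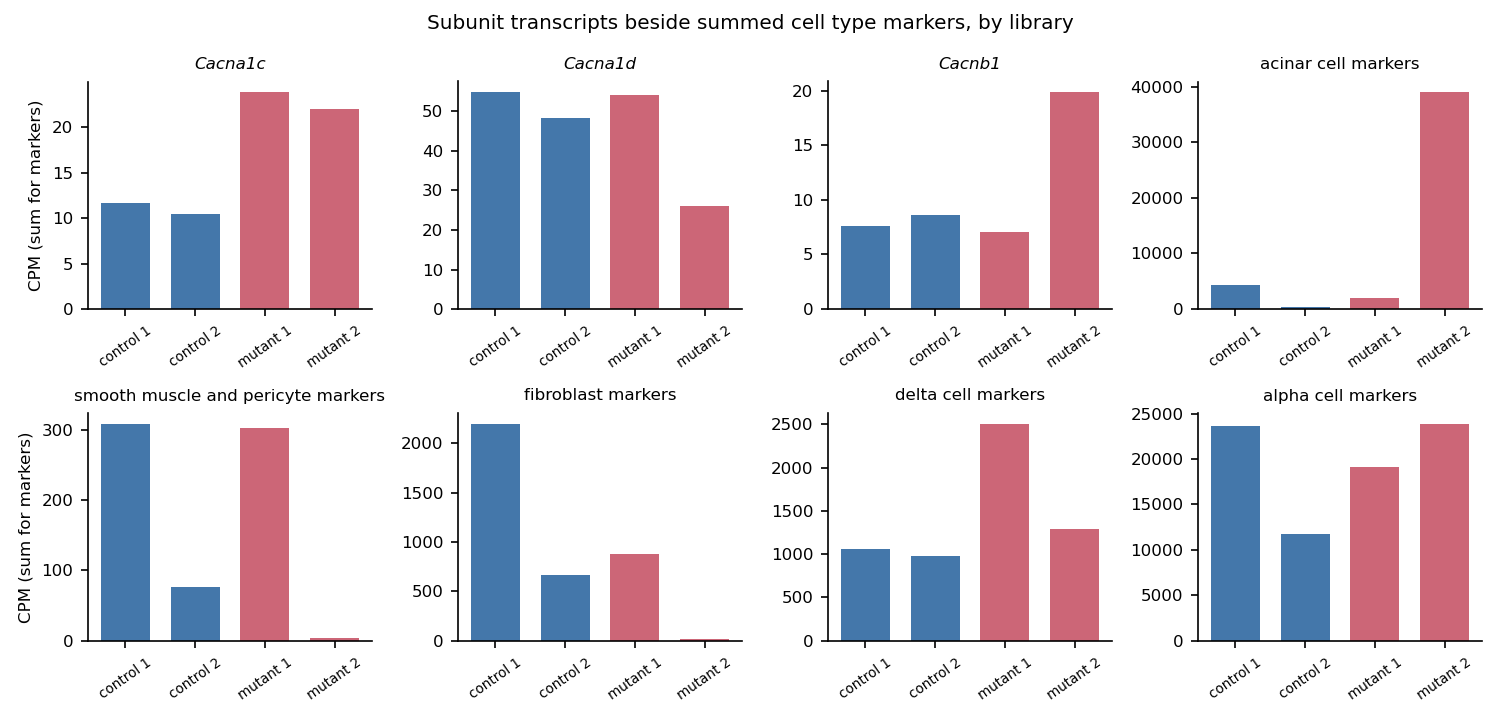
Level of Cacna1c, Cacna1d and Cacnb1 and summed level of 5 cell type marker lists (vertical axes, CPM, each from 0) in each library, blue for control and red for Robo mutant. Cacna1c is near 11 CPM in both controls and over 21 CPM in both mutants, while smooth muscle and pericyte markers are at 303 CPM in mutant 1 and 2.99 CPM in mutant 2, and acinar markers reach 39013 CPM in mutant 2.

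The family has 16 further subunit genes, of which 8 were tested and 4 (Cacna1s, Cacng1, Cacng6 and Cacng7) had 0 counts in every library. Of the 8, 3 were higher and 5 lower in mutant cells, and by edgeR 0 passed the adjusted threshold. Cacna1i, the gene of a T-type pore, had 50, 10, 0 and 0 counts. Against a floor of 3 counts per library this is at least 10.2-fold lower in the mutants, and at least 3.90-fold lower without control 1, which held most of the counts, or 16.6-fold without control 2. It was the 1 of the 8 with an unadjusted p under 0.05 by edgeR (0.0218), in a direction in which 4.21% of all tested genes had such a p. Cacna1i passed the filter on low counts only through the controls, with control 2 at the cutoff of 10 counts. Its direction was thus set by the filter, and this p gives no support for a difference. With limma on log2(CPM + 1) the unadjusted p was 0.0882, and 0.231 after quantile normalization on the same scale.

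Cacna2d3, another α2δ gene, had 28, 14, 81 and 147 counts. Both mutant libraries were above both controls, at 1.62 and 3.23 against 0.585 and 0.344 CPM, with a log2 change of 2.38 (SE 0.89) and an unadjusted p of 0.0501 by edgeR. The change was 1.80 without mutant 2. With limma on log2(CPM + 1) it was 1.19, and 1.34 after quantile normalization on the same scale, which understates changes of low genes. Cacna2d4 lay far from its group in both mutants, at 0.460 CPM in mutant 1 and 10.1 CPM in mutant 2 with both controls near 3.02 CPM. It had a log2 change of -2.71 without mutant 2 and 0.80 with it. The T-type gene Cacna1g (log2 change 0.61) and the β-subunit gene Cacnb4 (-0.29) had 40 to 145 counts and differed by less than their standard errors of 0.66 and 0.85.

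Proteins that tune or anchor these channels formed a list of 17 genes, of which 16 were tested, with 12 higher and 4 lower in mutant cells and a median log2 change of 0.27. By edgeR 0 passed, and 1 of the 16 had an unadjusted p under 0.05 and was higher, where 1.99% of all tested genes were higher and 4.21% lower at that p. That was Gem, which encodes a small GTPase of the RGK family that binds channel β subunits and inhibits calcium current. Gem was at 209, 105, 289 and 331 CPM, with a log2 change of 0.98 (SE 0.36) and an unadjusted p of 0.0453 by edgeR. Both mutant libraries were above both controls, but control 2 was far below control 1, so the log2 change was 0.57 without control 2 and 1.56 without control 1.

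Rem2, an RGK gene of the same function, was at 41.0, 35.9, 47.2 and 99.3 CPM. Its log2 change was 0.93 (SE 0.38, unadjusted p 0.0661 by edgeR) and 0.30 without mutant 2. Gem and Rem2 were thus both above the controls in both mutant libraries, each with 1 library that held much of the difference. Both mutant libraries lay above both controls in 5 of the 16 tested genes of this list, where 16.1% of all tested genes did so. They lay below both controls in 1, where 20.4% of all did. Of the scaffold genes of the release site, Pclo (log2 change -0.12) and Rimbp2 (-0.021) differed by less than their standard errors of 0.17 and 0.22.

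**Figure D5:**
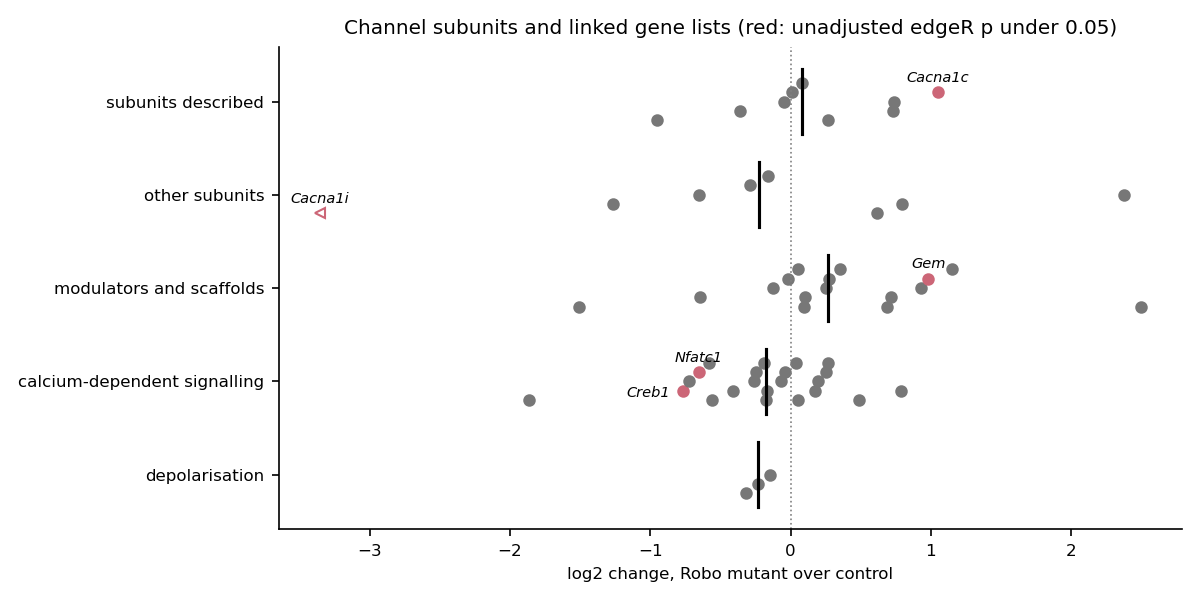
Log2 change of each tested gene (horizontal axis, Robo mutant over control) in the subunits described and in 4 linked lists, in red where the unadjusted edgeR p was under 0.05, with vertical bars for list medians. Cacna1c (1.05) and Gem (0.98) are on the higher side and Creb1 (-0.77) and Nfatc1 (-0.66) on the lower, and the open triangle is the bound for Cacna1i, which had 0 counts in both mutant libraries.

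Calcium that enters through the channels acts through calmodulin, its kinases and the phosphatase calcineurin. In this list of 23 genes, 22 were tested, with 8 higher and 14 lower in mutant cells and a median log2 change of -0.17. By edgeR 0 passed the adjusted threshold, and 2 of the 22 had an unadjusted p under 0.05, both lower, where 4.21% of all tested genes were lower and 1.99% higher at that p. Creb1, the gene of a transcription factor that calcium and cAMP signals activate, was at 42.8, 41.9, 26.0 and 23.8 CPM. The log2 change of Creb1 was -0.77 (SE 0.16) with an unadjusted p of 0.00657 and an adjusted p of 0.680 by edgeR, and -0.70 to -0.83 with 1 library left out. DESeq2 gave an adjusted p of 0.0896.

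Nfatc1, a transcription factor gene of the calcineurin pathway, was at 28.5, 36.2, 18.9 and 22.1 CPM, with a log2 change of -0.66 (SE 0.22) and an unadjusted p of 0.0350 by edgeR. For Creb1 and for Nfatc1 the genotypes did not overlap, with the mutant libraries on the lower side. The calmodulin gene Calm2 was at 421, 423, 506 and 501 CPM, a little higher in both mutant libraries, with a log2 change of 0.25, and did not pass.

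Upstream of the channels, all 3 listed genes of glucose uptake and of the ATP-sensitive potassium channel had log2 changes below 0, with a median of -0.23, and by edgeR 0 passed. Of all 16517 tested genes 8476 were lower, as were 9 of the 10 β-cell markers, of which Slc2a2 is 1. The part of β-cell content in these changes was not tested. Abcc8, the gene of the sulfonylurea receptor, was at 1554, 1399, 1183 and 1187 CPM, with a log2 change of -0.32 (SE 0.14) and an unadjusted p of 0.0791 by edgeR. Abcc8 was below both controls in both mutant libraries, as were 20.4% of all tested genes. The glucose transporter gene Slc2a2 (log2 change -0.23) and the channel pore gene Kcnj11 (-0.15) did not pass, and leaving out 1 library turned the sign of Slc2a2 and of Kcnj11.

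The named protein-coding genes with the profile most like that of Cacna1c, among 4118 of similar mean level, were Fabp5, Pgf and Prkx. The likeness is the Euclidean distance between log2 CPM values, centred on their mean over the 4 libraries, which was 0.16, 0.18 and 0.19. The nearest to Cacna1d, among 4543, were Rassf7, Cks1b and Dmxl2, at distances of 0.062, 0.11 and 0.11. All had their lowest level in mutant 2, as Cacna1d had, which follows from how they were picked. A distance under 0.25 was found for 9 genes with Cacna1c and for 42 with Cacna1d. With 4 libraries many genes share a profile, and these distances are descriptions.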

How the data were processed

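Values are the estimated counts per gene in the table the authors deposited, from 4 libraries, with no column of another sample (0 columns). Per the submitters' processing notes, RSEM 1.3.0, STAR 2.5.3a, edgeR 3.16.5 and bcl2fastq 2.20.0.422 were used, in roles not given there, on GRCm38. The sources used here do not give the annotation release. The deposited table's name calls the values normalized. They are nevertheless whole numbers with unequal totals per library and were taken to be RSEM estimated counts, rounded to whole numbers. If each library was rescaled earlier, its total is not its sequencing depth and counting intervals are approximate.

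A gene entered the tests with 10 or more counts in 2 or more libraries (16517 of 51912 genes). TMM factors, glmQLFit and glmQLFTest of edgeR 4.0.16 in R 4.3.3 compared Robo mutant with control over all kept genes, two-sided, with Benjamini-Hochberg adjustment and a threshold of 0.05. Standard errors were derived from the F statistic, and 95% intervals use its degrees of freedom. Alternatives used other scalings, filters, limma 3.58.1, DESeq2 1.42.0 and each library left out in turn. The edgeR step was tested on simulated counts.

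CPM use TMM-scaled totals. Length-scaled values (TPM) were computed by dividing counts by the union of a gene's exons in GENCODE M21, on the same build, with the longest coding transcript as the alternative. A length was found for 51719 genes. The libraries carry no strand information.

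The subunits and gene lists were chosen with earlier results of these data known. The rule named all 10 subunits, Robo1 and Robo2, and from each linked list up to 4 members with the highest CPM and up to 3 with the smallest p. It added the most abundant gene of each marker list and the 3 genes nearest in profile to Cacna1c and to Cacna1d. Some genes of the rule are given only in the counts of their list. Of the genes first listed, 2 are not reported here and were left out of the list counts, though not of the fit.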

Additional observations from a re-analysis of the deposited data

How the results depend on the processing

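The number of subunits past the threshold was 0 under every alternative run. Over all genes it was 0 except with DESeq2 (151 genes) and without mutant 2, where leaving out 1 library at a time gave 0 to 1. Cacna1c kept its direction under all 12 alternatives, with log2 changes from 0.97 to 1.13 and adjusted p from 0.0695 to 1.000. The sign of Cacna2d1 turned with library totals alone (-0.056), that of Ppp3r1 with the same (-0.0020) and that of Cacna2d4 with limma on log2(CPM + 1) (-0.0025). With 1 library left out at a time, signs turned within these ranges of log2 change: Cacna1d -0.98 to 0.070, Cacnb1 -0.20 to 1.29, Cacnb3 -0.11 to 0.021, Cacna2d1 -0.094 to 0.11, Cacna2d4 -2.71 to 1.73, Cacnb4 -0.75 to 0.061, Kcnj11 -0.42 to 0.078, Pclo -0.32 to 0.052, Ppp3r1 -0.033 to 0.14, Rimbp2 -0.22 to 0.19 and Slc2a2 -0.49 to 0.090. The turns of Cacna1d, Cacnb1, Cacnb3 and Cacna2d4 came without mutant 2. Cacna2d1 and Rimbp2 turned without mutant 2 and also without control 1. Those of Cacnb4, Kcnj11, Pclo and Ppp3r1 came without mutant 1, and that of Slc2a2 without control 2. The cause of these turns was not tested. A genotype left with 1 library is assumed to vary like the other. Cacna2d2, under 1 CPM on average, could not be fitted with the filter on a mean of 1 CPM. Counts under about 100, as for Cacna1e and Cacna2d2, limit what these libraries can show.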
